A study of Mus musculus with 6 samples.

Results

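Glycolysis breaks glucose down to pyruvate and lactate and yields ATP without oxygen. Germ cells that enter meiosis switch from the enzymes used in other tissues to isozymes made from genes active only or mainly in the male germ line, several of them intronless copies that arose by retroposition. In the sperm tail many of these enzymes are bound to the fibrous sheath, a cytoskeletal sleeve of the principal piece, where they supply ATP for movement. The 10 genes described here are germ-cell isozymes (Gapdhs, Pgk2, Ldhc, Aldoart1 and Eno4), the counterparts that somatic cells use (Gapdh, Pgk1, Ldha and Aldoa) and Hk1, the hexokinase with a known germ-cell transcript. They were taken by symbol from the 55536 genes of the count table, and all 10 were among the 20744 genes with enough counts to be tested. The symbol Aldoa is carried by 2 Ensembl identifiers, so that the 10 symbols stand for 11 identifiers. That a gene is specific to sperm cannot be tested with 1 tissue.

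RNA was taken from whole testes of 4-month-old mice, all on the FVB/NJ background, and each genotype had 2 libraries, described as biological replicates and so taken as separate mice. WT mice were FVB/NJ. P2KO mice carry a gene trap that replaced the coding part of the first exon of Padi2 with LacZ and neomycin sequence. DKO mice descend from P2KO mice through a single founder with a small CRISPR/Cas9 deletion in the first exon of Padi4, so the DKO group represents that founder's allele. Padi2 and Padi4 encode peptidylarginine deiminases, enzymes that convert arginine in proteins to citrulline. Total counts on genes were 21939393 and 26081756 in WT, 27306679 and 23072179 in P2KO, and 26068171 and 23366962 in DKO. The 11 identifiers held between 0.873% and 0.909% of the counts of each library.

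Padi2 was counted 47 and 64 times in the WT libraries, 100 and 55 times in P2KO, and 59 and 83 times in DKO. The ranges overlapped, so Padi2 does not check the labels. Gm13031 overlaps Padi2 on the other strand, and the reason for the similar counts was not tested. Padi4 was counted 20 and 43 times in WT, 11 and 10 times in P2KO, and 4 times in each DKO library. It was lower in DKO than in WT (log2 fold change -2.94 with a standard error, SE, of 0.513), at an adjusted p of 2.78e-04. P2KO also lay below WT without passing the test (-1.63, adjusted p = 0.0959 in edgeR), and the DKO libraries lay below those of P2KO without a call (-1.31, unadjusted p = 0.0445, adjusted p = 0.404 in edgeR). For Padi4 the 3 groups did not overlap, at low counts. Tests are edgeR's quasi-likelihood tests with Benjamini-Hochberg adjustment unless another tool is named. P2KO and DKO stand below for the libraries labelled so.

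Of the germ-cell members, Ldhc, Gapdhs and Pgk2 were among the most abundant transcripts of the testis, and Aldoart1 and Eno4 were not. Levels are compared between genes as CPM (counts scaled to library size) per kilobase of merged exons, averaged over the 6 libraries. Ldhc stood highest of the 10, at 1595 CPM per kb, and ranked 10 among the 20744 tested genes. Gapdhs followed at 975.5 CPM per kb (rank 16) and Pgk2 at 505.6 CPM per kb (rank 56). Ldha lay at 277.2 CPM per kb (rank 158) and Hk1 at 260.1 CPM per kb (rank 169). The libraries of Ldha and Hk1 overlapped, so their order is not resolved. Aldoa (157.3 CPM per kb, rank 336), Aldoart1 (78.82, rank 813), Eno4 (31.64, rank 2104), Gapdh (15.7, rank 3768) and Pgk1 (6.737, rank 6685) came next. Apart from Ldha and Hk1, no neighbours in this order overlapped in any library. The place of Gapdh depends on its pseudogenes, and its value per kilobase on its length of 4133 bases, both described below. With the counts of the pseudogenes added and this length kept, Gapdh had 57.6 to 63.4 CPM per kb and stood above Eno4. With the longest transcript in place of merged exons Hk1 had 518.8, and Hk1, Pgk2 (505.6) and Ldha (505.5) could not be separated. All of these are whole-testis values, in which fewer cells of a type and less RNA per cell cannot be told apart.

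**Figure D1:**
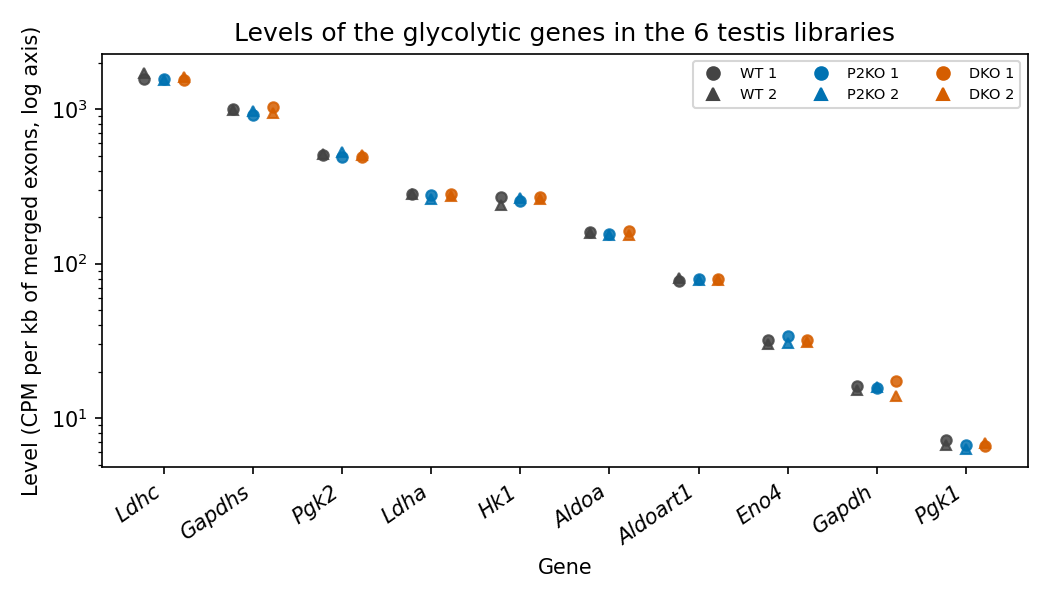
Level of each of the 10 genes (CPM per kb of merged exons, log axis) in the 6 testis libraries, with colour for genotype and symbol for replicate. Ldhc, Gapdhs and Pgk2 lie highest and Pgk1 lowest. The 6 points of a gene lie close together beside the distances between genes, except for Ldha and Hk1, which overlap.

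No member was called in any comparison at an adjusted p under 0.05. For P2KO against WT, 0 of 10 members were called, where 0.337% of all tested genes were (70 of 20744). For DKO against WT, 0 of 10 were called, where 3.22% of tested genes were (668 genes). For DKO against P2KO, 0 of 10 were called, where 1.21% of tested genes were (250 genes). At these shares fewer than 1 call would fall among 10 genes, so the count of 0 is near the background. In edgeR 0 members had an unadjusted p under 0.05 in any of the 3 comparisons, and DESeq2 gave 0 such members and 0 calls too, fitted on 6 libraries or on the 2 genotypes compared, the latter with no adjusted p for Pgk1 between DKO and P2KO. Of all tested genes, edgeR gave 8.57%, 14.1% and 11.8% an unadjusted p under 0.05 in the 3 comparisons, so 0 of 10 is near that share too.

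The size of the differences was small. The median log2 fold change of the 10 members was -0.025 for P2KO against WT, -0.0072 for DKO against WT and 0.025 for DKO against P2KO, beside medians of 0.0035, -0.0048 and -0.0028 over all tested genes. The median absolute log2 fold change of the members was 0.050, 0.022 and 0.037 in the same order, and that of all tested genes was 0.108, 0.126 and 0.119. All tested genes include many with far fewer counts than the members, whose estimates vary more. These medians therefore do not show that the members are steadier than genes of similar count. The spread beside well-counted genes is given further below. The largest absolute value among the members was 0.083, 0.065 and 0.069. Taken over 30 intervals of 95%, the fold changes of the 10 members lay between 0.813 and 1.202, both bounds being those of Pgk1, which has the fewest counts. The 27 intervals of the other 9 members lay between 0.877 and 1.15. With 2 mice per genotype, changes within these bounds cannot be told from no change. Comparisons of P2KO and DKO with WT share the WT libraries.

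**Figure D2:**
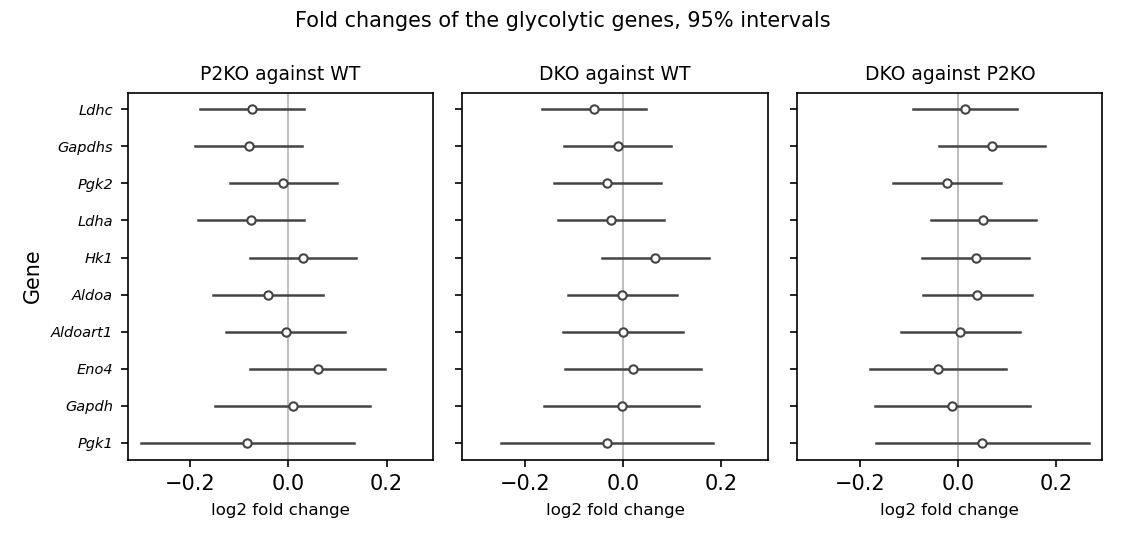
Log2 fold change of the 10 genes in each comparison, with circles for the estimate and lines for its 95% interval (edgeR, 6 libraries in 1 fit). Every interval includes 0, and that of Pgk1, the least abundant, is the widest.

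Hexokinase phosphorylates glucose, the first step of the pathway. Hk1 (ENSMUSG00000037012, GRCm38 chromosome 10, 62268855 to 62379908, minus strand) had normalized counts of 56170 and 50365 in WT, 53021 and 55731 in P2KO, and 56577 and 54883 in DKO. The WT libraries enclosed those of P2KO, and the 3 groups overlapped. The fold change was 1.05 for DKO against WT (95% interval 0.971 to 1.13). Germ cells use their own first exons of Hk1, and a count over the whole gene does not separate these transcripts from the somatic form. Hk1os lies on the other strand within the gene.

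Aldolase splits fructose-1,6-bisphosphate into a pair of triose phosphates. Aldoart1 (ENSMUSG00000059343, chromosome 4, 72850583 to 72852634, minus strand) is an intronless germ-cell copy of Aldoa. Its normalized counts were 3865 and 4081 in WT, 3984 and 3936 in P2KO, and 4019 and 3927 in DKO. These 6 values differed by a factor of 1.06, the smallest spread among the members. Aldoa (ENSMUSG00000030695, chromosome 7, 126795234 to 126800751, minus strand) had 11429 and 11267 in WT, 11054 and 11006 in P2KO, and 11657 and 11007 in DKO. Aldoa was lower in both P2KO libraries than in both WT libraries, by less than the test could resolve (fold change 0.972, 95% interval 0.8998 to 1.05). Among the member pairs this was the only one in which the somatic gene was higher per kilobase. The ratio of Aldoart1 to Aldoa ran from 0.480 to 0.514 over the 6 libraries, or from 0.255 to 0.273 with the longest transcripts. Fam57b overlaps Aldoa on the other strand.

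The other identifier named Aldoa (ENSMUSG00000114515, chromosome 7, 126800790 to 126809108, minus strand) lies directly upstream. It had 354.9 and 367.5 normalized counts in WT, 370.8 and 371.5 in P2KO, and 365.0 and 472.8 in DKO. Both P2KO libraries were just above both WT libraries, and a single DKO library was high while the other lay between the WT libraries. Against WT, DKO stood at a log2 fold change of 0.21 (adjusted p = 0.428 in edgeR, SE 0.114). This estimate ran from 0.0129 to 0.382 under 18 alternatives, and it was called in 0 of them.

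Aldoart1 and Aldoa are the most similar pair among the members, which bears on how far their counts can be told apart. Their coding sequences are 93.9% identical over 1257 aligned bases, with a longest identical run of 86 bases. The middle of the coding sequence of Aldoa (coding bases 599 to 658) and the bases of Aldoart1 aligned to it are shown, with capitals for bases that differ from Aldoa, of which there are 3 in 60.
Aldoa: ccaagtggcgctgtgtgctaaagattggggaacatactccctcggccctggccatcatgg
Aldoart1: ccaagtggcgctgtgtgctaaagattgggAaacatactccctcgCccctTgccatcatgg
Paired reads of 150 bases, as the study's methods give them, exceed the longest identical run, but neither gene was tested for misassigned reads.

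Glyceraldehyde-3-phosphate dehydrogenase makes the first high-energy phosphate of the pathway, and its germ-cell form is attached to the fibrous sheath. Gapdhs (ENSMUSG00000061099, chromosome 7, 30729775 to 30743681, minus strand) had normalized counts of 39468 and 39242 in WT, 36006 and 38428 in P2KO, and 40752 and 37331 in DKO. Both P2KO libraries lay below both WT libraries, and the DKO libraries lay on either side of WT. The difference between P2KO and WT did not pass the test (fold change 0.946, 95% interval 0.877 to 1.02, adjusted p = 0.728 in edgeR). Tmem147os lies on the other strand of the gene.

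Gapdh (ENSMUSG00000057666, chromosome 6, 125161715 to 125166467, minus strand), often used as a reference gene in RT-PCR, had 1630 and 1552 normalized counts in WT, 1580 and 1620 in P2KO, and 1754 and 1415 in DKO. The DKO libraries were the highest and the lowest of the 6, and Gapdh had the widest spread of the 10 members, a factor of 1.24. The estimate for DKO against WT was -0.17 in log2 when DKO 1 was left out and 0.14 when DKO 2 was, neither of them called. Iffo1 overlaps the gene on the other strand. In CPM per kb, Gapdhs exceeded Gapdh by a factor of 58.5 to 67.7 in the 6 libraries.

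This ratio depends on where reads of Gapdh were counted. By BLAST, 141 pseudogenes of the table hold a stretch at least 95% identical to Gapdh over at least 150 bases, 98 of them with counts. A further 4 genes of other types hold such a stretch and were not counted as copies. STAR's gene counts leave out reads that align equally well to several places. Gm10359, a processed pseudogene on chromosome 5, is 100% identical to Gapdh over 1002 bases, so that reads from this stretch can belong to either. The pseudogenes held from 72.7% to 76.0% of the reads counted on Gapdh and its pseudogenes together. Gm6981, the most highly counted of them (chromosome 9, 52002274 to 52003281), had 1899 and 2344 counts in WT, 2405 and 2043 in P2KO, and 2490 and 2068 in DKO, more than Gapdh itself in each library. Gapdh had 1447 and 1676 counts in WT, 1781 and 1522 in P2KO, and 1831 and 1335 in DKO. With pseudogenes added to Gapdh, Gapdhs exceeded it per kilobase by a factor of 15.2 to 17.3. These ratios also depend on length, since merged exons are 4133 bases for Gapdh and 1610 for Gapdhs. Gm6981 has only 1008 bases, but in the sum its reads were divided by the length of Gapdh. In counts not divided by length, the factor was 22.8 to 26.4 for Gapdh alone and 5.9 to 6.72 with pseudogenes added. Reads discarded for aligning to several places are in none of these figures.

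Coding sequences of Gapdhs and Gapdh are 68.8% identical over 1069 aligned bases, with no identical run longer than 20 bases, and no near-identical copy of Gapdhs was found. The pair can thus be told apart by sequence, as 60 bases from the middle of the coding sequence of Gapdh show (coding bases 511 to 570), with capitals for the 9 bases at which Gapdhs differs.
Gapdh: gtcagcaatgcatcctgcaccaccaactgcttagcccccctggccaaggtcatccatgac
Gapdhs: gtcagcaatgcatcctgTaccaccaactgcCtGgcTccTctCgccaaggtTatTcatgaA

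Phosphoglycerate kinase transfers the phosphate to ADP. Pgk1 is X-linked, and the intronless autosomal Pgk2 is known to take over in meiotic cells, in which the X chromosome is silenced. Pgk2 (ENSMUSG00000031233, chromosome 17, 40207015 to 40208640, minus strand) had normalized counts of 20173 and 20561 in WT, 19508 and 20954 in P2KO, and 19661 and 20168 in DKO. The P2KO libraries enclosed the other 4, and the fold change was 0.993 for P2KO against WT (95% interval 0.921 to 1.07). Both DKO libraries lay below both WT libraries, without passing the test (fold change 0.978, 95% interval 0.907 to 1.05, adjusted p = 0.866 in edgeR). Pgk1 (ENSMUSG00000062070, chromosome X, 106187100 to 106203699, plus strand) had 395.4 and 367.5 in WT, 368.1 and 350.3 in P2KO, and 365.0 and 379.5 in DKO. The groups overlapped. In CPM per kb, Pgk2 exceeded Pgk1 by a factor of 70.4 to 82.6, the largest ratio of the member pairs.

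The count of Pgk1 may leave out reads. Among 4 pseudogenes with near-identical stretches, Pgk1-rs7 (chromosome 12) and Gm5537 (chromosome 3) are 100% identical to Pgk1 over 1255 and 1252 bases, about the length of its coding sequence of 1254 bases. Reads that lie wholly in this stretch can fit several places, and such reads are left out by STAR's gene counts. How many reads of Pgk1 this concerned, and so its effect on the ratio to Pgk2, was not tested. No more than 2 counts in any library fell on the 4 pseudogenes together. Pgk2 and Pgk1 are 79.3% identical over their coding sequences, and no near-identical copy of Pgk2 was found. Coding bases 598 to 657 of Pgk1 are shown with the same stretch of its pseudogenes and of Pgk2, whose 14 differing bases are in capitals.
Pgk1: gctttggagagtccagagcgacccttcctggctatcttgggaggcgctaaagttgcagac
Pgk1-rs7: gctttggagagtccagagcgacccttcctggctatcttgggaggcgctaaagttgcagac
Gm5537: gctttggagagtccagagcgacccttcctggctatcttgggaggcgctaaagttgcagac
Pgk2: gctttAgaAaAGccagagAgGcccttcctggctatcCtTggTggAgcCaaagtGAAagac

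Enolase makes phosphoenolpyruvate. Eno4 (ENSMUSG00000048029, chromosome 19, 58943425 to 58971421, plus strand), the enolase of the sperm tail, had normalized counts of 2010 and 1911 in WT, 2146 and 1935 in P2KO, and 2008 and 1962 in DKO. P2KO 1 was highest, and the groups overlapped. The ratio of Eno4 to Eno1, the common enolase and a gene of the pathway list, ran from 0.596 to 0.693 per kilobase, or from 0.225 to 0.261 with the longest transcripts. Hspa12a overlaps Eno4 on the other strand.

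Lactate dehydrogenase turns pyruvate into lactate and restores NAD+. Ldhc encodes the subunit found in sperm, and it lies beside Ldha on chromosome 7, on the same strand. Ldhc (ENSMUSG00000030851, 46861203 to 46878142) had normalized counts of 60792 and 66703 in WT, 61250 and 59885 in P2KO, and 59923 and 62419 in DKO. WT 2 stood above the other 5 libraries, and WT 1 lay among them. Ldha (ENSMUSG00000063229, 46841475 to 46855627) had 23022 and 23049 in WT, 22519 and 21180 in P2KO, and 22963 and 22328 in DKO. Both WT libraries of Ldha were above the other 4, without passing the test (fold change for P2KO against WT 0.949, 95% interval 0.881 to 1.02, adjusted p = 0.747 in edgeR). Ldhc exceeded Ldha per kilobase by a factor of 5.47 to 6.06, or 3.46 to 3.83 with the longest transcripts.

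Ldhc and Ldha are 73.3% identical over 999 aligned coding bases, with no identical run above 20 bases. Of 5 pseudogenes near-identical to a stretch of Ldha, the most highly counted was Ldha-ps2, and the 5 held at most 0.0625% of the reads of the gene and its pseudogenes. Aldoa had 1 such pseudogene, Aldoa-ps4, counted once in 1 library. None was found for Gapdhs, Pgk2, Ldhc, Aldoart1, Eno4 or Hk1. Coding bases 514 to 573 of Ldha and the 15 bases in capitals at which Ldhc differs show how the reads of these abundant neighbours are told apart.
Ldha: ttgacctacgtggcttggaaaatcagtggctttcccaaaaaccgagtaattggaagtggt
Ldhc: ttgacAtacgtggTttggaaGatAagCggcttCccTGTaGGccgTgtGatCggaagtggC

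Between libraries, the members varied by factors near those of other well-counted genes. The highest normalized count of a member exceeded its lowest by a factor of 1.06 to 1.24. For the 4854 tested genes with a mean of at least 1000 normalized counts the median factor was 1.14 (quartiles 1.1 and 1.2). All members but Pgk1 reach that mean. The mean centred log2 CPM of Gapdhs, Pgk2, Ldhc and Aldoart1 was -0.0063 and 0.0515 in WT, -0.0378 and -0.0011 in P2KO, and 0.0049 and -0.0112 in DKO. WT 2 was highest and P2KO 1 lowest, and the DKO libraries overlapped with WT. Eno4 was not part of this mean. The 4 genes correlated with one another at Pearson's r from -0.095 (Pgk2 and Aldoart1) to 0.590 (Ldhc and Aldoart1), and Eno4 with them at r from -0.831 (Pgk2) to -0.153 (Aldoart1), so the mean is no shared course of the germ-cell members. As a description over the 6 libraries, which share scaling and a narrow range, the genes most like this profile were Gstm5 (r 0.996), Ptgr1 (0.985), 1700012A03Rik (0.979), Lrrc57 (0.977) and Svbp (0.976). They were the highest of 9731 candidates, of which 56 were above 0.9.

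Other genes of the pathway were examined to see whether enzymes and carriers around the members differed between genotypes. Of 41 genes, 38 were tested. The other 3 had too few counts. Of the 38, 0 were called higher and 1 lower for P2KO against WT, and 0 in either direction in the other comparisons. Of all tested genes 0.337% (P2KO against WT), 3.22% (DKO against WT) and 1.21% (DKO against P2KO) were called. Unadjusted p-values under 0.05 numbered 8, 6 and 6 of 38 in edgeR, in the order P2KO against WT, DKO against WT and DKO against P2KO. Of all tested genes 8.57%, 14.1% and 11.8% had one, so each count lies above that share, the first by the most. DESeq2 on 6 libraries gave 6, 4 and 5 such p-values and called 0, 0 and 1. On the 2 genotypes compared it gave 5, 1 and 5 and called 0, 0 and 2. The median log2 fold change of the list was -0.029, 0.016 and -0.0018.

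The called gene was Slc2a8, which encodes the glucose transporter GLUT8. Slc2a8 (chromosome 2, 32972990 to 32982083) had normalized counts of 1389 and 1311 in WT, 1107 and 1054 in P2KO, and 1238 and 1232 in DKO. The libraries labelled P2KO were below the others, with a log2 fold change against WT of -0.32 (adjusted p = 0.033 in edgeR, SE 0.0727). DKO lay between. The call depended on the processing. It was made in 7 of 18 alternatives and not in 11, with log2 fold changes from -0.36 to -0.28 and adjusted p-values from 0.0143 to 0.44. Among them, leaving out WT 1, P2KO 1, P2KO 2, DKO 1 or DKO 2 ended it, with adjusted p-values of 0.0747, 0.117, 0.44, 0.0689 and 0.0636. For DKO against P2KO the log2 fold change was 0.19 (adjusted p = 0.243 in edgeR).

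The largest estimate of the list for P2KO against WT was that of Slc16a3, a lactate carrier chosen here after its values were seen. It had 95.8 and 75.9 normalized counts in WT, 142.8 and 138.4 in P2KO, and 137.0 and 105.0 in DKO. P2KO stood 0.72 above WT in log2 (adjusted p = 0.0745 in edgeR, SE 0.180), and it was called without a filter on low counts (adjusted p = 0.0221).

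Each of the 8 groups of the list is described by its highest gene per kilobase. Among carriers Bsg, a chaperone of lactate carriers, was highest at 263.1 CPM per kb. Gpi1 led the hexokinases and phosphohexose isomerase of the list at 87.7 CPM per kb, below the member Hk1 (260.1). Pfkm led the phosphofructokinases at 45.7 CPM per kb. Aldoart2, another intronless aldolase gene, led its group at 243.7 CPM per kb, above Aldoa and Aldoart1. With the longest transcripts Aldoart2 was below Aldoa (295.6) and Tpi1 (253.1). Aldoart2 is 91.6% identical to Aldoa and 89.0% identical to Aldoart1 over 1095 coding bases. Pgam2 led the lower part of the pathway at 726.5 CPM per kb, a level between those of Pgk2 and Gapdhs. Ldhal6b led the remaining lactate dehydrogenases at 465.6 CPM per kb, above Ldha, though below it (505.5) with the longest transcripts. The autosomal Pdha2 exceeded X-linked Pdha1 by a factor of 45.7 to 58.1 per kilobase. Gk2 exceeded X-linked Gk by a factor of 1131 to 2670, or 633.9 to 1497 with the longest transcripts, and the ratio was widest in DKO 2, where Gk had its lowest normalized count, 23.3.

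None of these 8 leading genes was called in any comparison by the edgeR fit of the report. The nearest was Pfkm, which had normalized counts of 3767 and 3808 in WT, 3446 and 3449 in P2KO, and 3956 and 4069 in DKO. The P2KO libraries were lowest and those of DKO highest. DKO stood 0.22 above P2KO in log2 (adjusted p = 0.0591 in edgeR, SE 0.0595). It was called in 7 of 18 alternatives, among them DESeq2 on 6 libraries (adjusted p = 0.0357) and the fits without WT 1 (adjusted p = 0.0109) or WT 2 (adjusted p = 0.00853).

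**Figure D3:**
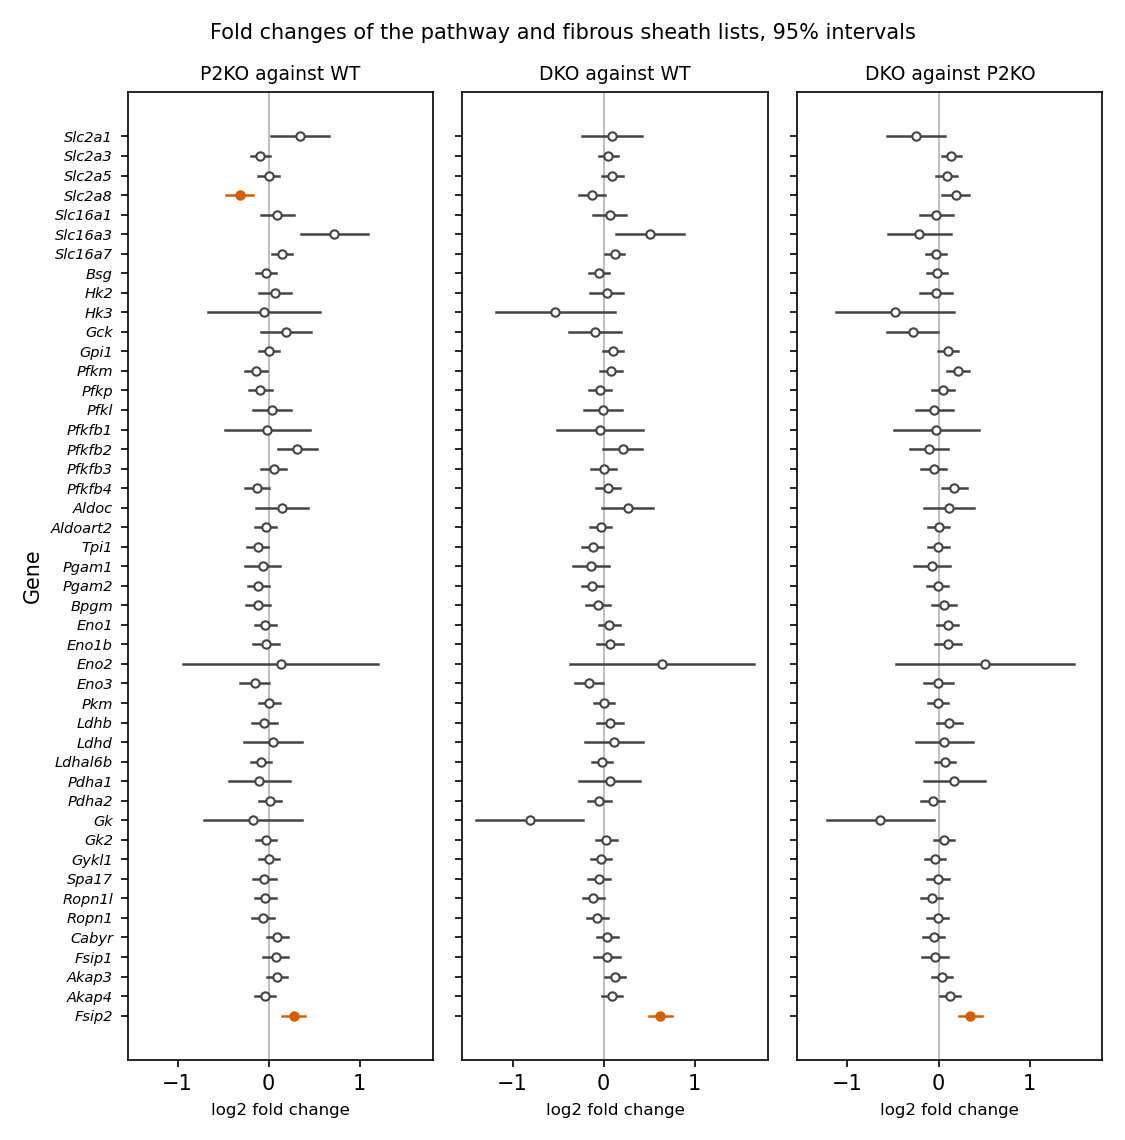
Log2 fold change with 95% interval of the 38 tested genes of the pathway list (Slc2a1 to Gykl1) and the 8 genes of the fibrous sheath list (Spa17 to Fsip2) in each comparison. Filled orange circles mark called genes, which are Slc2a8 for P2KO against WT and Fsip2 in all 3 panels.

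The fibrous sheath, to which many of the glycolytic enzymes are bound in sperm, was represented by 8 genes, all tested. Of these, 1 was called higher and 0 lower in each comparison, and it was Fsip2 each time. Of all tested genes 0.337% (P2KO against WT), 3.22% (DKO against WT) and 1.21% (DKO against P2KO) were called. Fsip2 (chromosome 2, 82943634 to 83008937, plus strand) encodes a large structural protein of the sheath. Its normalized counts were 9857 and 8941 in WT, 11202 and 11522 in P2KO, and 13398 and 15528 in DKO. The 3 groups did not overlap, and DKO was highest. The log2 fold change was 0.62 for DKO against WT (adjusted p = 6.98e-09 in edgeR, SE 0.0624) and 0.35 for DKO against P2KO (adjusted p = 8.7e-04 in edgeR, SE 0.0621). P2KO stood 0.27 above WT (adjusted p = 0.033 in edgeR, SE 0.0624).

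Fsip2 has merged exons of 21147 bases, and its estimates were smaller when a trend of fold change with gene length was removed. They were then 0.42 for DKO against WT (adjusted p = 4e-07 in edgeR), 0.26 for DKO against P2KO (adjusted p = 0.00358) and 0.17 for P2KO against WT (adjusted p = 0.22). The call for DKO against WT was made in 18 of 18 alternatives. That for DKO against P2KO was lost without DKO 2 (log2 fold change 0.24, adjusted p = 0.222). That for P2KO against WT was lost in 11 of 18, including the fits without WT 2 (0.20, adjusted p = 0.165), P2KO 1 (0.29, adjusted p = 0.131) or P2KO 2 (0.25, adjusted p = 0.436).

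The other 7 sheath genes were not called. Akap4, the main anchoring protein of the sheath, had 55865 and 53255 normalized counts in WT, 49936 and 56350 in P2KO, and 58600 and 57783 in DKO. P2KO enclosed WT, and both DKO libraries were above the other 4. For DKO against WT the log2 fold change was 0.093 (adjusted p = 0.47 in edgeR). The median over the 8 genes, in log2, was 0.018 (P2KO against WT), 0.040 (DKO against WT) and -0.0076 (DKO against P2KO).

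The cells that express the members were represented by marker lists. Spermatocyte markers summed to 1072 and 1047 CPM in WT, 1108 and 1084 in P2KO, and 1105 and 1055 in DKO, with Sycp3 highest per kilobase. Markers of round spermatids summed to 1484 and 1480 CPM in WT, 1517 and 1513 in P2KO, and 1519 and 1451 in DKO, with Spata18 highest. Elongating spermatid markers summed to 15320 and 15910 CPM in WT, 13220 and 14480 in P2KO, and 14360 and 14130 in DKO, with Prm2 highest at 5670 CPM per kb. The WT libraries were above the other 4 for this last list. No gene of the 3 lists was at 0 counts.

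Of the 6 elongating spermatid markers, 1 was called lower for P2KO against WT, and 2 for DKO against WT, where 0.337% and 3.22% of all tested genes were called. These genes and those in the next paragraph are named after their values were seen. Tnp2 was lower in P2KO (log2 fold change -0.29, adjusted p = 7.62e-04 in edgeR), with the call made in 17 of 18 alternatives and lost without P2KO 1 (-0.27, adjusted p = 0.0784). Prm1 (-0.22, adjusted p = 0.0302) and Tnp1 (-0.25, adjusted p = 0.013) were lower in DKO. Of 18 alternatives Prm1 was called in 12 and Tnp1 in 13, among them DESeq2 on the 2 genotypes (adjusted p = 0.0236 and 0.00289). Removing the trend with gene length ended both calls and made the estimates smaller (-0.12, adjusted p = 0.331, and -0.15, adjusted p = 0.2). DESeq2 on 6 libraries ended both with estimates about as large (-0.21, adjusted p = 0.0665, and -0.25, adjusted p = 0.393). So did leaving out DKO 1 (-0.20, adjusted p = 0.269, and -0.22, adjusted p = 0.228) or DKO 2 (-0.24, adjusted p = 0.139, and -0.30, adjusted p = 0.0636), and that of Prm1 was also lost without WT 2 (adjusted p = 0.0992). The part of these cells in the values of the members was not tested.

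Among the other lists, 1 of 5 round spermatid markers was called for DKO against P2KO, where 1.21% of all tested genes were called. This was Spaca1 (log2 fold change -0.25, adjusted p = 0.0402 in edgeR). It was called in 10 of 17 alternatives. Leaving out P2KO 1 ended the call with a smaller estimate (-0.15, adjusted p = 0.614). With estimates nearer that of the report it was lost without DKO 1 (-0.27, adjusted p = 0.215) or DKO 2 (-0.24, adjusted p = 0.399), with the replicate block (-0.25, adjusted p = 0.0712), in DESeq2 on 6 libraries (-0.25, adjusted p = 0.0643) and with the length correction without or with the block (-0.21 in both, adjusted p = 0.059 and 0.0583). Of 6 Leydig cell markers, 3 were called higher and 1 lower for DKO against WT, where 3.22% of all tested genes were called. Star (0.51, adjusted p = 1.59e-04), Cyp17a1 (0.31, adjusted p = 0.0193) and Cyp11a1 (0.28, adjusted p = 0.0324) were higher, and Hsd3b1 (-0.46, adjusted p = 2.73e-04) was lower, all in edgeR. Without DKO 1 the calls of Cyp17a1 (log2 fold change 0.076, adjusted p = 0.805), Cyp11a1 (0.074, adjusted p = 0.811) and Hsd3b1 (-0.32, adjusted p = 0.086) were lost. DESeq2 on 6 libraries did not call Star (0.51, adjusted p = 0.186), Cyp17a1 (0.31, adjusted p = 0.662) or Cyp11a1 (0.28, adjusted p = 0.526), with estimates as large as in edgeR. Of 18 alternatives Star and Hsd3b1 were called in 17, Cyp17a1 in 15 and Cyp11a1 in 11. Leydig markers summed to 662.9 and 647.2 CPM in WT, 761.4 and 682.0 in P2KO, and 852.0 and 697.4 in DKO. The 8 lists for spermatogonia, spermatocytes, Sertoli, peritubular myoid, endothelial, red blood and fat cells and macrophages had 36 tested genes and 0 calls in any comparison. Of all tested genes 0.337% (P2KO against WT), 3.22% (DKO against WT) and 1.21% (DKO against P2KO) were called, so 0 is near these shares. Among these 36, edgeR gave 7, 5 and 7 with an unadjusted p under 0.05, where 8.57%, 14.1% and 11.8% of all tested genes had one, so the first and last counts lie above that share, and DESeq2 on 6 libraries 0, 0 and 2, with 0 calls.

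Promoter sequences from RefSeq (GRCm38.p6), which run from 250 bases before to 50 after each transcription start, were available for 9 of the 10 members, Aldoart1 being the exception, in 15 windows. Over all 32851 windows of 300 bases the median number of CG dinucleotides was 7. The window of Pgk2 held 4 and that of Pgk1 held 24. The first window of Ldhc held 9 and that of Ldha 30. In the first windows Gapdhs had 4, Gapdh 12, Eno4 24, Aldoa 0 and Hk1 1. In first windows, neither did the germ-cell members share a low number nor the somatic ones a high number. Further windows held 24 and 23 for Aldoa, 20 for Hk1, 13 for Ldha, 1 for Gapdhs and 3 for Ldhc. Over all windows, each somatic gene and Hk1 had at least 1 above the median of 7, as did Ldhc and Eno4 among the germ-cell members. On either strand, TGACGT was present in the first window of Gapdhs, Ldhc and Ldha (7.51% of all windows hold it), GGGCGG in the first windows of Pgk1, Ldhc and Ldha and in 2 windows of Aldoa (35.7% of all windows), and TATAAA in none (13.6% of all windows). A match is a description only. For the genes of 2 pairs that differ in level, the 100 bases before the RefSeq transcription start listed first are shown with CG dinucleotides in capitals (for Pgk2 and Ldhc they lie partly, and for Ldha wholly, within the gene as Ensembl bounds it), for Pgk2 (chr17:40208610-40208709, minus strand), Pgk1 (chrX:106187000-106187099, plus strand), Ldhc (chr7:46861163-46861262, plus strand) and Ldha (chr7:46845704-46845803, plus strand).
Pgk2: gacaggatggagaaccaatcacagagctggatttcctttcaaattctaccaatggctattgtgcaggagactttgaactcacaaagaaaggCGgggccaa
Pgk1: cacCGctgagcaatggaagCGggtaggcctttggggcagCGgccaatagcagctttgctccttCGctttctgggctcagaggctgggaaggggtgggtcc
Ldhc: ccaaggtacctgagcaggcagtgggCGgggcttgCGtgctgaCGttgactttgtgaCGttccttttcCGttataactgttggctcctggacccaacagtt
Ldha: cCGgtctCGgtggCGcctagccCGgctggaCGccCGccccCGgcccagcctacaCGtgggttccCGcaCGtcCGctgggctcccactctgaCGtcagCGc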

How the data were processed

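Poly(A)-selected RNA of 6 testes was sequenced with a strand-specific kit. The authors deposited raw counts of reads per gene, made by trimming with Trim Galore, alignment to GRCm38 and STAR's GeneCounts, and the submitters' notes also name cutadapt and DESeq2. Versions, and the strand column of the STAR output that was used, are not given in the sources used here, so genes with an overlap on the other strand carry that uncertainty. Depth was 21939393 to 27306679 counts per library. With the library columns labelled by strain or genotype and number, each was assigned to its sample. Positions, lengths and copies came from GENCODE mouse release 21 (Ensembl release 96), which held all 55536 identifiers.

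The test was run on these counts with edgeR 4.0.16 in R 4.3.3 (TMM scaling, filterByExpr with a minimum count of 10, glmQLFit and glmQLFTest on 6 libraries with genotype as the only term, Benjamini-Hochberg adjustment over 20744 genes, call at an adjusted p under 0.05). TMM factors ran from 0.984 to 1.02, and the common biological coefficient of variation was 0.0508. A standard error is the absolute log2 fold change divided by the square root of F. Normalized counts are counts scaled to a common depth, namely the geometric mean of the TMM-scaled library sizes. An exact permutation test of 2 against 2 libraries cannot go below p = 0.33, so none was used. Near-identical copies are transcripts of other genes with at least 95% identity over at least 150 bases by BLAST.

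Genes were named as members, as pathway or sheath genes that were called or led their group per length, as the 5 genes most like the mean of 4 germ-cell members with at least 10 CPM, as copies with the most counts, and as targets. Outside these rules, Slc16a3 and the called marker genes were named after their values were seen. Some further genes were also named, among them Akap4 and the highest genes of marker lists. Members and lists were chosen with earlier results of these data known. The alternatives were RLE and upper-quartile scaling, no filter, a mean of at least 50 counts, a replicate block, DESeq2 1.42.0 and edgeR on fewer libraries, length and GC corrections (lowess, span 0.3), genes off chromosome 4, each library left out, pseudogene copies added to members, and the longest transcript.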

Additional observations from a re-analysis of the deposited data

How the results depend on the processing

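In the alternatives run, 0 members were called in each comparison, of 10, or of 9 off chromosome 4, where Aldoart1 is left out. DESeq2 on the 2 genotypes gave Pgk1 no adjusted p for DKO against P2KO. Of 549 log2 fold changes of members under alternatives, 66 had another sign than the estimate in the report, all of them uncalled. By more than the standard error 30 moved, 17 with a change of sign and 13 without. The largest move was 0.17, and the largest log2 fold change 0.18 in absolute size. With the upstream identifier named Aldoa added to the members, these were 0.196 and 0.382. Without 1 library in turn, a lone library is assumed to vary like the other genotypes.

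Over those fits, called genes ran from 53 (without P2KO 2) to 311 (without WT 1) for P2KO against WT, from 250 (without DKO 2) to 1065 (without WT 1) for DKO against WT, and from 108 (without DKO 2) to 622 (without WT 2) for DKO against P2KO. Called pathway genes ran from 0 to 1 for P2KO against WT and for DKO against P2KO, and sheath genes from 0 to 1 for the same comparisons and from 1 to 2 for DKO against WT.

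For P2KO against WT, 140 genes were called with no filter, 45 with the replicate block, 41 with DESeq2 on 6 libraries, 40 with DESeq2 on the 2 genotypes and 24 off chromosome 4, where fewer genes were tested. DESeq2 called 403 and 296 for DKO against WT. For DKO against P2KO, DESeq2 on 6 libraries called 162 and edgeR on the 2 genotypes 579. Pathway genes for P2KO against WT were 2 with no filter and 0 with the replicate block, either DESeq2 fit, edgeR on the 2 genotypes, the GC correction or off chromosome 4. For DKO against P2KO they were 2 with DESeq2 on the 2 genotypes, and 1 with DESeq2 on 6 libraries, edgeR on the 2 genotypes and the length correction with or without the replicate block. Sheath genes for P2KO against WT were 0 with a mean of at least 50 counts, the replicate block, DESeq2 on 6 libraries, edgeR on the 2 genotypes, either length correction, the GC correction or off chromosome 4. The log2 fold change of Fsip2 was 0.27 in the report. In these fits it was 0.17 with either length correction, 0.23 with the GC correction and 0.27 in the others. The cause was not tested.

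The replicate numbers do not pair the libraries, since deviations of same-numbered libraries from their group means correlated at -0.0572, 0.0574 and -0.0502. With the replicate block, 555 genes were called for DKO against WT and 189 for DKO against P2KO.

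With the longest transcripts, the mean WT ratios per kilobase were 55.9 for Gapdhs to Gapdh, 60.03 for Pgk2 to Pgk1, 3.67 for Ldhc to Ldha, 0.264 for Aldoart1 to Aldoa, 0.234 for Eno4 to Eno1, 40.5 for Pdha2 to Pdha1 and 703.4 for Gk2 to Gk. The choice of length is the cause by construction. Depth limits Pgk1 most, at 329 to 415 counts per library.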
